A study of Sus scrofa with 8 samples.

Results

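Of 178498 regions of open chromatin in porcine muscle satellite cells, 357 (0.2%) carried a peak in all 4 libraries labelled CBP and in none of the 4 libraries labelled WT. They were chosen by merging the peaks of the 8 libraries on chromosomes 1 to 18 and X wherever they overlapped by at least 1 bp, and then keeping the regions with that pattern of calls. The presence of a peak in CBP and its absence in WT are therefore the rule itself, and every difference between CBP and WT at these regions is a description without a test. The opposite pattern, a peak in every WT and no CBP library, was found at 403 regions (0.226%). With all 8 libraries the CBP pattern was thus the rarer of the pair, but this order turned with the libraries used. Without CBP 0 h replicate 2 the CBP pattern was found at 766 regions and the opposite at 551. Without CBP 0 h replicate 1 the counts were 495 and 856.

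ATAC-seq was run on 4 groups of 2 libraries each: WT and CBP at 0 h, labelled proliferation, and WT and CBP at 60 h, labelled differentiation. The labels place WT and CBP under genotype, while the protocol attached to all 8 samples describes SGC-CBP30 at 5 uM/ml, for 48 h in proliferation or 60 h in differentiation. They do not say which groups received it, so the groups are named here as labelled. The cell line is given as C3H, a name that the labels do not explain for pig cells, and the files use coordinates of the pig build Sscrofa11.1. The labels do not tie the 2 libraries of a group to separate animals or cultures. A p-value here covers the spread between libraries alone, shared over regions by the fit given below, and that spread may be technical.

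Satellite cells are the resident stem cells of skeletal muscle, which divide and then fuse into multinucleate fibres. CBP, encoded by CREBBP, and its relative EP300 acetylate histones, above all at enhancers that lie away from gene starts, and they bind acetylated lysine through a bromodomain that SGC-CBP30 occupies. In ATAC-seq a transposase inserts adapters into DNA that is not wrapped in nucleosomes, so a peak marks a promoter, an enhancer or another open site. A missing peak means only that the signal did not pass the peak caller's threshold in that library.

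The lists held between 82696 and 135528 peaks per library. Depth was read from the floor, the commonest background pileup in a list, and relative to the shallowest library it was 1.69 and 2.09 in WT 0 h, 1.98 and 1.43 in CBP 0 h, 1.11 and 1 in WT 60 h, and 1.21 and 1.08 in CBP 60 h. The summit height used throughout is the number of reads piled up at the summit divided by that floor. On this scale the lowest peak called over the floor stood at 3.05 and 2.72 in WT 0 h, 3.72 and 3.61 in WT 60 h, 2.86 and 3.25 in CBP 0 h, and 3.42 and 3.83 in CBP 60 h. Of the 10 satellite cell markers, all 10 had a nearby region called in all 8 libraries, as did 8 of 9 matched endothelial, 8 of 10 immune and 6 of 9 neural or Schwann markers. A call near a gene therefore did not separate these cell types, and the part of other cells was not tested.

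The regions called only in CBP were weak peaks. Their median summit height was 5.72 and 5.78 in CBP 0 h replicates 1 and 2, and 6.41 and 7.17 in CBP 60 h replicates 1 and 2. Regions called in all 8 libraries stood at 17.7, 18.8, 13.7 and 14.8 in the same libraries. In reads, the median summit held 22 and 16 at 0 h and 15 and 15 at 60 h, with ranges of 12 to 92, 9 to 66, 9 to 42 and 8 to 37. Each of the 4 libraries thus placed most of these regions among its fainter peaks, and both time points did so.

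Ranked by the authors' −log10 q within each list, the median region lay at percentile 29.2 and 22.8 in the CBP 0 h libraries and 31.1 in both CBP 60 h libraries. Between 79.8% and 95.5% of the 357 lay below the middle of the list. The 403 regions called only in WT sat at like ranks in their own lists, with median percentiles from 29.6 to 33.1. The 2 classes differed more in their local background. It was at the library floor for 58.8%, 58.8%, 39.2% and 39.5% of the regions called only in CBP, and for 35.7%, 36.2%, 27.5% and 28.3% of those called only in WT, in the order 0 h replicates 1 and 2 and then 60 h replicates 1 and 2. Among all called regions these shares ran from 16.3% to 23.6% in the CBP libraries.

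The regions were short, single summits. Their median merged width was 616 bp (quartiles 491 and 753), against 595 bp for regions called only in WT and 1245 bp for those called in all 8. A single peak per library made up 343 of the 357 (96.1%). The summits of the 4 CBP libraries lay a median of 118 bp apart from first to last (quartiles 59 and 209), and in 159 regions (44.5%) they lay within 100 bp of each other.

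**Figure D1:**
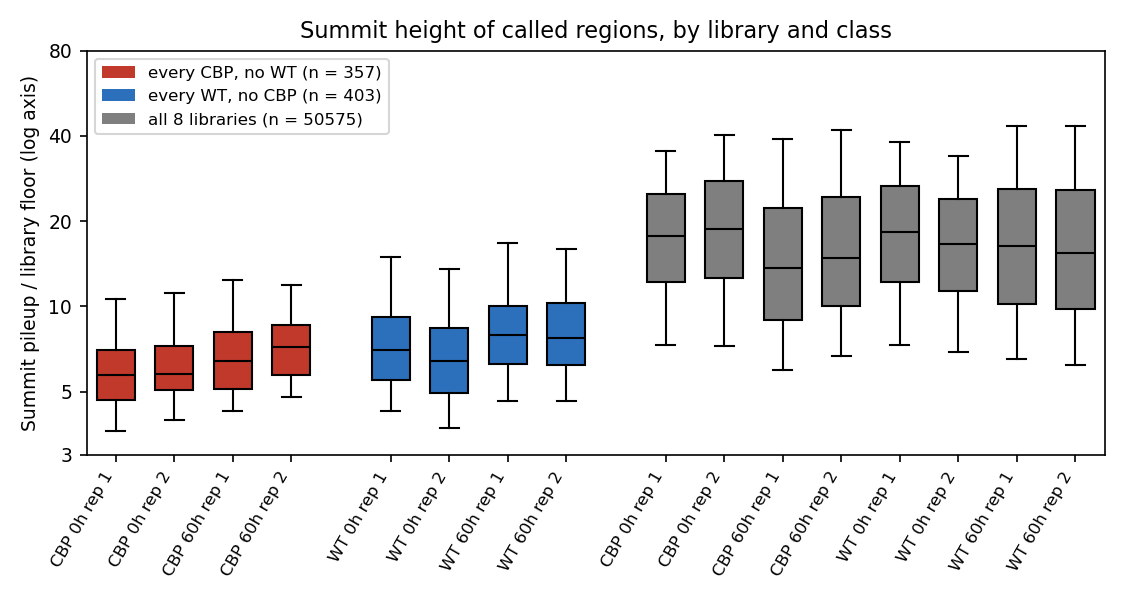
Summit height (reads at the summit over the library floor) in each CBP library for the 357 regions called only in CBP and for regions called in all 8 libraries. The medians of the former lie between 5.72 and 7.17, below the medians of 13.7 to 18.8 for the latter.

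The rule has an edge on both sides. A further 1232 regions missed 1 CBP call with none in WT, and the missing library was CBP 0 h replicate 1 for 133, CBP 0 h replicate 2 for 411, CBP 60 h replicate 1 for 311 and CBP 60 h replicate 2 for 377. Another 768 had all 4 CBP calls and 1 call in WT. That 1 call came from the deeper 0 h libraries in 256 and 412 cases, and from the 60 h libraries in 53 and 47. Median heights were 5.74 and 6.52 in these neighbouring classes, on either side of the 6.34 of the regions inside the rule. Without 1 library the rule gave 613 regions (WT 0 h replicate 1 left out), 770 (WT 0 h replicate 2), 766 (CBP 0 h replicate 2), 673 (CBP 60 h replicate 1) or 734 (CBP 60 h replicate 2), and between 403 and 495 without any of the other 3.

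Just inside the rule, by the lowest percentile over the 4 CBP lists, lay a site inside SIPA1L1 at percentile 0.024 (chr7:95063071-95063680), a site 9841 bp from DCTN6 at 0.198 (chr15:54865940-54866372) and a site inside GPR39 at 0.282 (chr15:19639870-19640734). At the other end, only 2 regions stayed above percentile 50 in all 4 lists. The whole class had a median lowest percentile of 12.1, and 154 of the 357 fell under percentile 10 in at least 1 library.

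Under 3 of 4 other definitions of a call, most regions lost the pattern. Of the 357, 133 (37.3%) were kept when peaks had to cover 50% of the region, 74 (20.7%) when only peaks with −log10 q of at least 5 counted, 40 (11.2%) when every list was reduced to the same number of peaks, and 346 (96.9%) when peaks up to 200 bp apart were merged. All 4 changes left 12 regions in place, and 174 held under only 1 of them. The 12 were singled out after their values had been seen.

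The strongest of the 12 lay between genes, 89762 bp from FBXL4, which encodes a mitochondrial F-box protein (chr1:66026204-66027361). Its summit height was 8.33 and 7.95 at 0 h and 8.97 and 11 at 60 h, and it was above the middle of all 4 lists, at percentiles 62.4, 52.0, 56.5 and 67.1. The next, 258986 bp from ASB3 (chr3:87760165-87760769), stood at 8.33, 8.31, 8.55 and 8.13, nearly level over the 4 libraries. The region 236788 bp from C3H2orf91 (chr3:98606807-98607555) stood at 7.80 and 8.31 at 0 h and 7.69 and 13.9 at 60 h, so 1 of the 60 h libraries was far above the other.

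Inside IGF1R, the receptor through which insulin-like growth factors promote the growth of muscle cells, a region of 736 bp (chr1:137469574-137470309) reached 10.7 and 12.6 at 0 h and 11.11 and 13.9 at 60 h. These are 41, 35, 26 and 29 reads. Its ranges at 0 h and 60 h overlapped. A region 35832 bp from THRB, which encodes thyroid hormone receptor beta (chr13:10864234-10864884), stood at 7.28 and 8.31 at 0 h and at 6.41 and 6.22 at 60 h, so both 0 h libraries were higher.

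A region inside ITPRIP, whose product interacts with the inositol trisphosphate receptor (chr14:115247131-115247531), was the tallest of the 357 in both CBP 0 h libraries and in CBP 60 h replicate 1, but not in CBP 60 h replicate 2. It reached 23.9 and 23.8 at 0 h, or 92 and 66 reads, and 17.9 and 13.9 at 60 h, or 42 and 29 reads. Its percentile in the last list was 30.04 despite that height, and the nearest region on either side was called in all 8 libraries. The site inside SMG6, the endonuclease of nonsense-mediated decay (chr12:48214682-48215266), stood at 7.28, 8.67, 7.69 and 10.0.

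Another 3 of the 12 lay inside or near CNTN1, NAV3 and MRPL39. Inside CNTN1, a contactin of the axonal membrane (chr5:72396470-72397068), the heights were 7.02, 6.14, 6.84 and 7.17. The site 98297 bp from NAV3, a neuron navigator protein (chr5:103961519-103962055), stood at 7.02 and 7.95 at 0 h and 10.3 and 9.57 at 60 h, so both 60 h libraries were higher. The most isolated, 1494023 bp from MRPL39 (chr13:187653635-187654688), stood at 7.02, 6.5, 7.27 and 7.17. The remaining 2, at AQP9 and inside SLC14A2, are described with the gene ends and with the times.

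**Figure D2:**
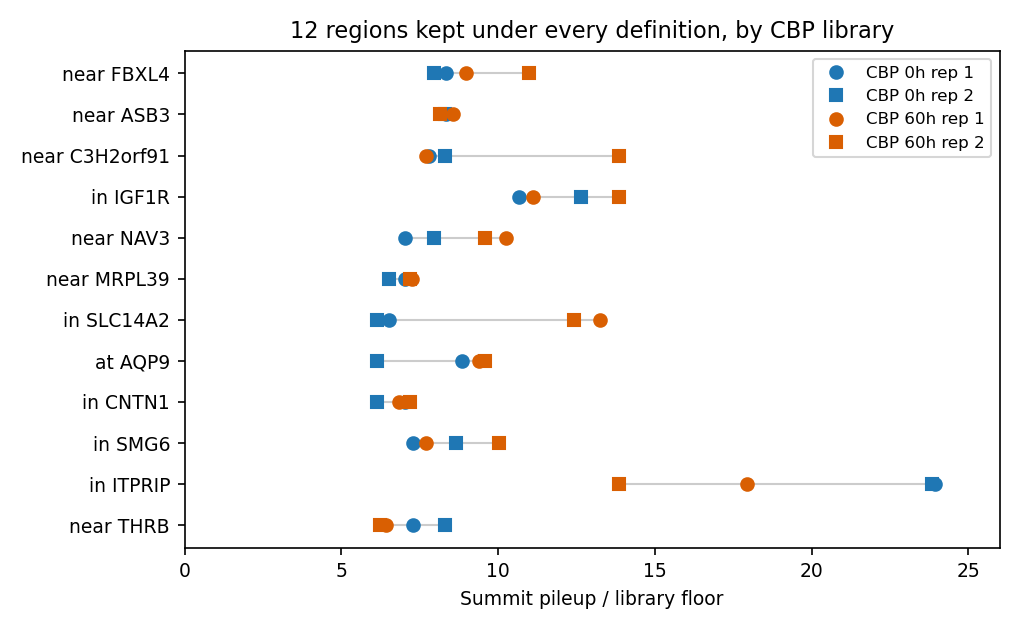
Summit height over the library floor in each of the 4 CBP libraries for the 12 regions kept under all 4 other definitions of a call. ITPRIP lies at 13.9 to 23.9, and the SLC14A2 site is split by time, with 6.14 and 6.5 at 0 h and 12.4 and 13.2 at 60 h.

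Other regions among the 10 strongest by rank lost the pattern under at least 1 definition. Between genes were a site 136062 bp from VRK2, a kinase (chr3:83673084-83673374), and a site 476268 bp from ADGRL2, a latrophilin receptor (chr6:131250181-131250814). The others lay inside AGPAT4, an acyltransferase of phospholipid synthesis (chr1:6765052-6765945), KIAA1549L (chr2:27341053-27341802) and REEP1, which shapes the endoplasmic reticulum (chr3:58523339-58524257). Over all of these regions the heights ran from 6.24 to 10.8. The VRK2 site was higher in both 0 h libraries, at 9.63 and 10.1, than in the 60 h libraries, at 7.27 and 7.65.

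Only 8 of the 357 regions (2.24%, 95% exact Clopper-Pearson interval 0.972 to 4.37) lay within 1 kb of an end of a protein-coding gene. The gene table gives no strand, so a gene end may be the start or the finish of transcription. The share was 3.72% (2.1 to 6.07) for regions called only in WT, 9.13% for all regions and 21.9% for those called in all 8 libraries. The interval of the CBP class overlapped that of the WT class and lay below both others.

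Among these 8, the tallest was at TRAF4, an adaptor of tumour necrosis factor receptor signalling (chr12:44981356-44981997), with heights of 15.9 and 13.0 at 0 h and 13.2 and 17.7 at 60 h. Its percentile was nonetheless 38.3, 5.50, 15.4 and 38.8. At SLC39A4, an intestinal zinc transporter (chr4:372314-372932), the heights were 11.4, 13.4, 10.3 and 11, and at BCAS1, a gene of myelinating oligodendrocytes (chr17:54920932-54921467), 11.7, 14.5, 10.3 and 11. Both sites were somewhat lower in each 60 h library than in either 0 h library.

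At AQP9, a channel for water and glycerol (chr1:113848457-113849244), which was among the 12 kept throughout, the heights were 8.85, 6.14, 9.40 and 9.57. The end of MTCH2, a protein of the outer mitochondrial membrane (chr2:15004969-15005462), stood at 8.85, 11.2, 7.27 and 7.65. That of ZNF853, a zinc finger gene (chr3:4592719-4593445), stood at 9.63, 6.5, 8.12 and 10.0. The last 2 were weaker. ETS1, the founding member of the ETS transcription factors (chr9:55511959-55512660), showed 6.5 and 6.5 at 0 h and 3.85 and 5.26 at 60 h, and DPP10, a subunit of potassium channels (chr15:21365466-21365957), 4.68, 5.78, 4.27 and 5.74.

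The regions lay far from the ends of genes, although 160 of them (44.8%) were inside one. The median distance from summit to the nearest gene end was 57.4 kb (quartiles 24207 and 136210 bp), against 26.2 kb for regions called only in WT, 26.9 kb for all regions and 16.3 kb for those called in all 8. The 95% interval of the median, counted over regions, was 47.6 to 72.0 kb. Between genes lay 189 regions (52.9%, 47.6 to 58.2), against 42.2% (37.3 to 47.2) of the WT class. No gene end within 50 kb was found for most of them: 163 (45.7%, 40.4 to 51.0) had one, against 66.0% (61.2 to 70.6) of the WT class and 64.4% of all regions. These intervals did not overlap, but they treat regions as independent, and all regions come from the same 8 libraries.

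The same order was seen 1 call away from the rule. Regions with 4 CBP calls and 1 WT call had a median distance of 47688.5 bp, and those with 3 CBP calls and no WT call 49426 bp. Their counterparts stood at 25.8 kb (4 WT calls and 1 CBP call) and 29.3 kb (3 WT calls and no CBP call). With each library left out in turn the CBP class stayed between 49.4 and 57.5 kb and the WT class between 24.5 and 28.1 kb. Across the definitions of a call the CBP class ranged from 43.7 kb, with equal peak numbers, to 78.8 kb, with −log10 q of at least 5. The WT class under the same definitions stood at 24.7 and 23.1 kb. The part that local background or base composition has in these distances was not tested.

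Regions inside genes lay in long ones. The 160 such regions fell in 155 host genes. With a host counted once for each region inside it, the median host length was 273.6 kb (quartiles 134 and 462). Counted in the same way, it was 133 kb for the WT class, 144 kb for all regions and 134 kb for regions called in all 8. Hosts were also long 1 call away, at 211 kb with 4 CBP calls and 1 WT call and 214 kb with 3 CBP calls and no WT call. Genes were sparser around the class, with a median of 6 protein-coding genes within 500 kb on each side together. Both classes 1 call away had 6 as well, against 9 for the WT class and 8 for all regions. There was none around 11 members (3.08%, 1.55 to 5.45), as around 11 (2.73%, 1.37 to 4.83) of the WT class and 1.8% of all regions, a share inside both intervals.

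Hosts over 1 Mb held 15 regions, a count not made for the other classes, so no excess can be read from it. The longest was TENM2, a teneurin of the synapse, at 3460 kb (chr16:56738094-56738728). MACROD2 (2052 kb), DLG2 (1971 kb), which encodes a postsynaptic scaffold, CSMD1 (1882 kb) and NRXN3 (1647 kb), a presynaptic neurexin, followed. Next came THSD7B (1522 kb), PDE4D (1509 kb), a cyclic AMP phosphodiesterase, and RBMS3 (1490 kb).

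**Figure D3:**
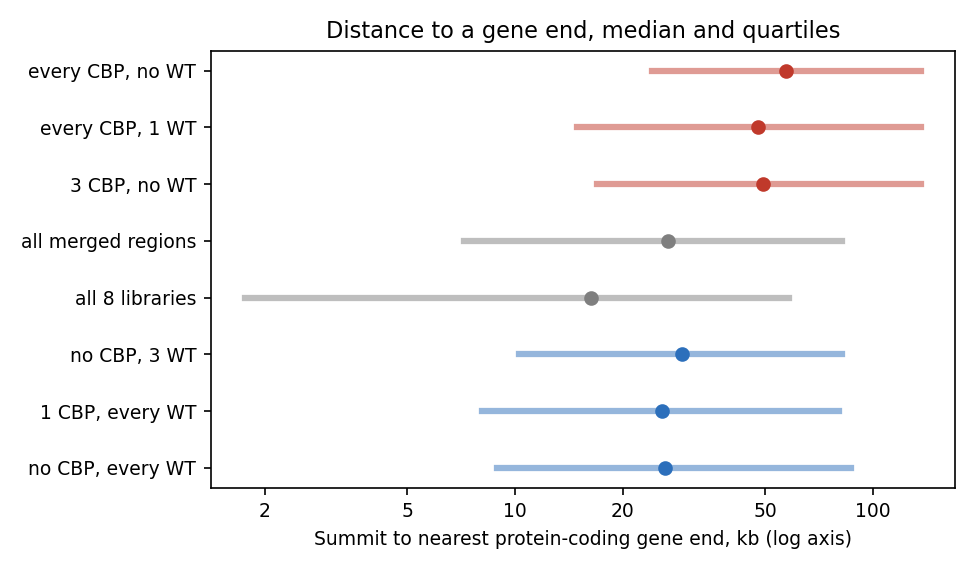
Distance from summit to the nearest end of a protein-coding gene, for the 357 regions called only in CBP, the 403 called only in WT and the other classes of calls. The medians are 57.4 kb for the CBP class and 26.2 kb for the WT class.

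The listed pathway genes were neighbours about as often as for regions at large. Of the 357, 5 regions (1.40%) had as nearest gene, within 50 kb, a member of 12 lists of 220 genes, of which 209 matched the gene table. The share was 1.74% for the WT class and 1.38% for all regions. No region was linked to the lists of myogenic regulators, satellite cell and Notch genes, acetyltransferase and bromodomain proteins, adipogenic genes, immediate early genes with AP-1, TGF-beta and BMP targets, inflammatory genes or cell cycle genes. At most 0.150% of all regions were linked to any 1 of these lists, and a count of 0 in 357 allows a share of up to 0.84%, so no difference from the background was detectable.

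Of the sarcomere list, TPM1, a tropomyosin of the thin filament, had a region 23810 bp away (chr1:108962803-108963171) with heights of 3.12 and 4.34 at 0 h and 4.70 and 4.78 at 60 h, among the faintest of the class. Of the fusion list, ADGRB3, an adhesion receptor that promotes the fusion of myoblasts, had one 43752 bp away (chr1:49663535-49664287) at 5.72, 7.23, 7.69 and 6.22. Of the matrix list, TWIST2, a basic helix-loop-helix factor of mesenchymal progenitors, had one 24273 bp away (chr15:138300614-138301334). It stood at 4.94 and 6.14 at 0 h and 7.27 and 8.61 at 60 h, higher in both 60 h libraries.

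The guidance list held the other two. EPHA7, an ephrin receptor, had a region 34609 bp away (chr1:60978701-60979086) at 3.90 and 5.06 at 0 h and 6.84 and 7.17 at 60 h. SLIT3, a secreted ligand of ROBO receptors, had one 31917 bp away (chr16:54519070-54519619) at 4.94 and 4.34 at 0 h and 7.69 and 9.09 at 60 h. Both were higher at 60 h without overlap. Among markers of other cell types, KDR, the endothelial receptor for vascular endothelial growth factor, had 1 region 37048 bp away (chr8:41771091-41772068) at 4.94, 4.34, 5.13 and 6.70, while immune, neural and satellite cell markers had none.

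Linked regions of CREBBP, EP300 and the main myogenic genes are given for reference. CREBBP had 17 linked regions and EP300 had 8, of which 4 and 3 were called in all 8 libraries. PAX7, which marks satellite cells, had 42, and MYOD1, MYF5 and MYOG, the factors that drive the muscle programme, had 8, 5 and 10. None of these belonged to the class, and at 0.2% of all regions so few linked regions would seldom hold a member.

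The 163 linked regions were spread over 161 genes, and only 2 genes had 2 regions each. CHL1, an adhesion molecule of the L1 family, had 5 linked regions in all. Its 2 lay 13918 bp (chr13:57048109-57048743; heights 4.94, 5.78, 5.13 and 6.70) and 24996 bp (chr13:56778696-56779313; 6.76, 5.42, 4.27 and 8.61) from it, on both sides of the gene. ANKFN1 had 24 linked regions, and its 2 lay inside the gene (chr12:32518318-32518767 and chr12:32527231-32527783). They stood at 3.90, 3.61, 5.13 and 6.70 and at 3.64, 5.78, 5.98 and 7.17, each higher in both 60 h libraries.

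The regions were scattered over the genome. Another region of the class lay within 50 kb of only 13 (3.64%, 1.95 to 6.15), in 6 chains of at most 3, and the share was 2.98% (1.55 to 5.14) for the WT class. Of 249 windows of 10 Mb, 183 held at least 1, and the fullest held 6. Relative to regions called in all 4 CBP libraries, the class made up 5.84 per 1000, and by chromosome this ran from 2.65 on chromosome 10 to 10.8 on chromosome 16. Chromosome 9 held 33 regions (9.46 per 1000) against 13 of the WT class (3.70 per 1000 of the regions called in all 4 WT libraries), and chromosome 4 held 12 (3.4) against 33 (9.34). The spread of these rates between replicates cannot be had, because membership needs all 8 libraries.

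**Figure D4:**
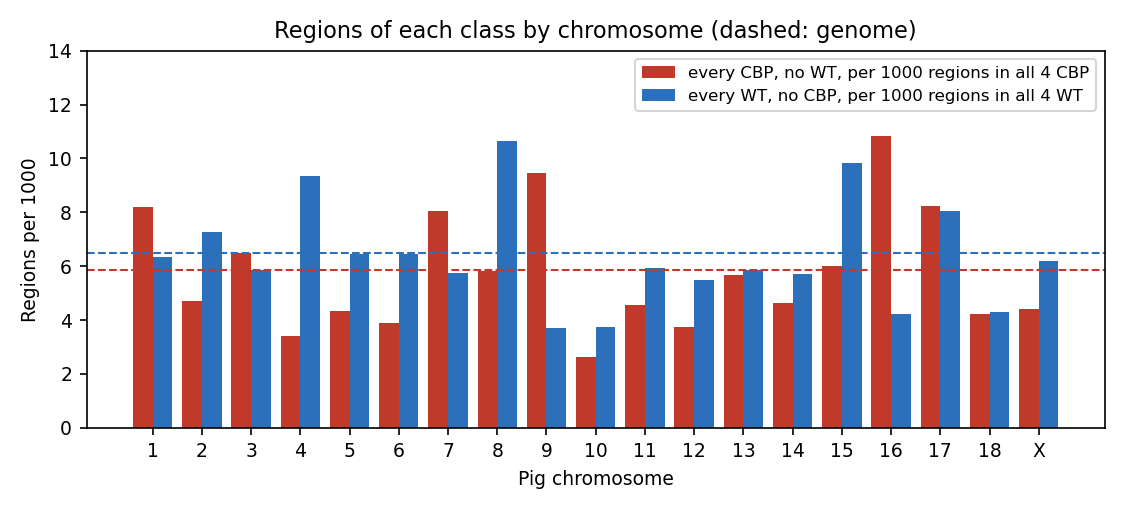
Regions per 1000 on each chromosome, for the class called only in CBP (relative to regions in all 4 CBP libraries) and the class called only in WT (relative to regions in all 4 WT libraries). Chromosomes 9 and 16 lie at 9.46 and 10.8 for CBP, chromosome 4 at 9.34 for WT.

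The longest chain ran over 45646 bp of chromosome 14 (chr14:91821778-91867423), more than 277 kb from the nearest gene, CXCL12, which encodes a chemokine that attracts migrating cells. Its first region stood at 4.42 and 5.06 at 0 h and 6.41 and 10.5 at 60 h. The second (chr14:91861329-91861885), nearest to ZNF32, stood at 7.80 and 8.67 at 0 h and 6.84 and 6.70 at 60 h, and the third (chr14:91866802-91867423) at 3.38 and 3.97, then 5.56 and 7.17. The outer 2 were higher at 60 h and the middle one at 0 h.

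MYO1E, a class I myosin, held a pair that likewise differed by time. One (chr1:112712471-112713078) stood at 5.72 and 5.78 at 0 h and 11.5 and 11.5 at 60 h, and the other (chr1:112749514-112749937) at 10.7 and 15.2 at 0 h and 8.97 and 10.0 at 60 h. A pair inside SLC14A2, a urea transporter, held the site kept under every definition (chr1:94967565-94968274) and a second at 5.72, 6.86, 6.84 and 6.70 (chr1:95000757-95001396). A pair between SMAD2, a transducer of TGF-beta signals, and ZBTB7C stood at 7.02, 6.5, 7.27 and 6.22 (chr1:97538227-97538818) and at 4.94, 4.34, 4.70 and 6.22 (chr1:97571385-97571958). Regions of 1 chain thus shared their place, but on this scale not always the order of their heights over the times. In the fit over time given below, the middle region on chromosome 14 differed by −0.28 in log2 (limma adjusted p = 0.437). The second MYO1E site differed by −0.42 (limma adjusted p = 0.156). Neither fall was called, and setting medians equal, as below, moves every difference up by 0.36.

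The nearest region on either side of a member lay a median of 8036 bp away. Of these 714 neighbours, 40.9% were called in more CBP than WT libraries and 22.1% in more WT than CBP libraries. Around all regions the shares were 29.8% and 27.5%, and around the WT class 25.2% and 31.4%. The neighbours of regions with 4 CBP calls and 1 WT call stood at 37.5% and 23.6%. In both classes the balance of calls at neighbouring regions thus leaned to the libraries of the same label. Around the CBP class this went with fewer WT calls, a mean of 1.97 against 2.27 around all regions. CBP calls were not more frequent there, at 2.24 against 2.29. Around the WT class the mean was 2.41 WT calls and 2.30 CBP calls.

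The difference between 60 h and 0 h within the CBP libraries is a contrast the rule did not name, but the rule acts on the same heights. A faint member needs a higher summit to be called at 60 h than at 0 h in CBP, by the lowest called heights given above, and must be absent from the WT 0 h lists, which reach lower heights than those at 60 h. The counts and medians over members, and the calls at single members, are therefore a description and support nothing. The fit used limma on log2 summit height over all 61081 regions called in the 4 CBP libraries, with Benjamini-Hochberg adjustment and a threshold of 0.05. In this fit the variance of a region was taken wholly from the trend over all regions. Its SE and adjusted p therefore do not measure the spread between that region's own replicates.

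On the floor scale most members stood higher at 60 h, and most regions at large stood lower. Their median log2 difference, 60 h minus 0 h, was 0.19 (quartiles −0.04 and 0.47), and 251 of the 357 were above 0. Over all 61081 regions the median was −0.20. By limma with Benjamini-Hochberg adjustment, 55 members (15.4%) rose, where 3.88% of all regions did, and 6 (1.68%) fell, where 25.2% of all regions did. In 150 members (42.0%) both 60 h libraries were above both 0 h libraries, where 15.7% of all regions showed this, and in 42 (11.8%) both were below, where 47.5% did.

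The 15271 regions of lowest mean height, which included 330 of the 357, had a median difference of −0.17, with 6.78% higher and 17.9% lower, while the 330 had a median of 0.20. The 330 were fainter still, with a median height of 6.09 against 7.59. Among regions called in all 4 CBP libraries, the median was 0.10 for those with 1 WT call, whose median height of 6.37 was close to the members' 6.18, −0.19 with 2, −0.26 with 3 and −0.20 with 4. The regions called only in WT, fitted in the same way within WT, had a median of 0.20 against −0.06 over all WT regions. Of these 403, 50 (12.4%) rose and 6 (1.49%) fell, where 7.89% and 13.3% of the regions called in all 4 WT libraries did. Both classes, each absent from the lists of the other label, thus stood above the other regions of their own libraries. The part of the depth difference between 0 h and 60 h in this was not tested.

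Other settings gave other counts. Leaving out a library leaves 1 in its group, which the fit assumes to vary like the other group, so fewer calls follow in part from fewer libraries. Without CBP 0 h replicate 1, 14 members rose and 2 fell, and without CBP 0 h replicate 2, 17 rose and 0 fell. Without CBP 60 h replicate 1, 3 fell, and without CBP 60 h replicate 2, 30 rose and 9 fell. With the medians of regions called in all 8 libraries set equal, the median of all regions moved up by 0.36, and 160 members rose and 1 fell. On that scaling the median of all regions was 0.16, and with quantile normalization it was 0.02, so the direction of regions at large turns with the scaling. The members' median lay 0.38 above that of all regions on the floor scale, 0.33 with quantile normalization, 0.17 with the authors' fold and 0.15 for the 27 members left when the 15271 regions of lowest height were dropped.

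**Figure D5:**
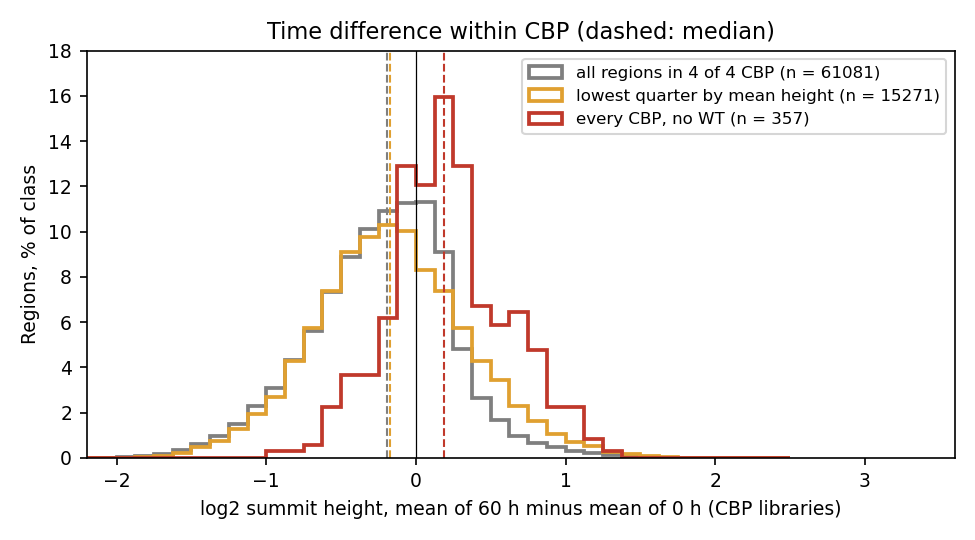
Distribution of the log2 difference in summit height, mean of 60 h minus mean of 0 h in the CBP libraries, in percent of each class, with medians as dashed lines. The 357 regions called only in CBP have a median of 0.19, all 61081 regions −0.20 on this scale, and the 15271 regions of lowest mean height −0.17.

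Among the regions that rose, the smallest p belonged to a site inside DLG2 (chr9:19411542-19412205), at 5.46 and 5.42 at 0 h and 13.2 and 12.9 at 60 h. The log2 difference was 1.27 (SE 0.25, limma adjusted p = 7.11e-06). A site inside UFM1, which encodes a ubiquitin-like modifier (chr11:13708388-13709145), went from 6.24 and 3.97 to 10.7 and 12.9, a difference of 1.24 (SE 0.25, limma adjusted p = 1.88e-05). The site 34032 bp from ANKEF1 (chr17:18923289-18924133) stood at 4.94 and 5.42 and then at 10.7 and 11.96 (1.13, SE 0.25, limma adjusted p = 0.000111). At DLG2 and ANKEF1 the groups were far apart beside the difference between replicates. At UFM1 the 0 h replicates were themselves well apart, though both lay below the 60 h libraries. The SE at UFM1 does not reflect that gap.

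A site 156692 bp from MRPL22, a protein of the mitochondrial ribosome (chr16:68072334-68073033), stood at 4.16 and 5.06 at 0 h and 10.3 and 10.0 at 60 h (1.15, SE 0.26, limma adjusted p = 0.000123). The SLC14A2 site, kept under every definition, went from 6.5 and 6.14 to 13.2 and 12.4 (1.02, limma adjusted p = 0.000284). Of the regions described above, those at MYO1E (1.00), SLIT3 (0.85), CXCL12 (0.80), the third of that chain (0.78) and EPHA7 (0.66, limma adjusted p = 0.0485) rose as well. The calls at SLIT3, CXCL12 and the third of that chain were each lost in 4 of 9 other settings, which were the authors' fold, with differences of 0.27, 0.30 and 0.43, and the fits without either 0 h library or CBP 60 h replicate 2. That at EPHA7 was lost in 5 of 9, with the authors' fold and without any 1 of the 4 libraries. The SLC14A2 call was lost with the authors' fold (0.41, limma adjusted p = 0.0877), and the UFM1 call without CBP 0 h replicate 2 (0.91, limma adjusted p = 0.0697). The TWIST2 site, at 0.52, did not pass the threshold (limma adjusted p = 0.121). At the DLG2, ANKEF1, MRPL22 and MYO1E sites the differences ran from 0.65 to 1.62 over the 9 other settings in which they were fitted. These settings reuse the same 4 libraries and the same chosen regions, so they give no independent support.

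Of the 6 that fell, the smallest p was at a site inside MEP1B, a membrane metalloprotease (chr6:116042460-116042789), which stood at 8.59 and 9.75 at 0 h and 5.13 and 4.30 at 60 h (log2 difference −0.96, SE 0.26, limma adjusted p = 0.00169). The site 37730 bp from CDH6, a cadherin (chr16:17493397-17494132), went from 8.33 and 11.2 to 4.70 and 6.22 (−0.84, limma adjusted p = 0.00622). The ITPRIP site fell by 0.60 (limma adjusted p = 0.00537), but with the authors' fold enrichment in place of the summit height its difference was 0.05. The site 169468 bp from SRRM4, a splicing factor of neurons (chr14:33988327-33988876), stood at 7.28 and 7.59 and then at 4.27 and 4.78 (−0.72, limma adjusted p = 0.0279). The SRRM4 call was lost in 6 of 9 other settings, among them equal medians (limma adjusted p = 0.273), quantile normalization (0.0866) and a pseudocount of 5 reads (0.178). The CDH6 call was lost in 4 of 9, with equal medians (limma adjusted p = 0.116), quantile normalization (0.0789), and without CBP 0 h replicate 2 or CBP 60 h replicate 1. The MEP1B call was lost with the authors' fold, at −0.35, and without CBP 0 h replicate 2. ITPRIP also lost its call under both rescalings and without either 0 h library or CBP 60 h replicate 2. No gene of the 12 lists lay at a region that fell.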

How the data were processed

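ATAC-seq peak lists of 8 libraries, 2 for each of 4 groups, were used. Per the submitters' processing notes, Trimmomatic and MACS2 2.1.0 were used with the Sscrofa11.1 build. An aligner, duplicate removal or transposase shift is not given in the sources used here, and each would change peak heights. The authors deposited MACS2 values for each peak: fold enrichment ratio against local background, significance as −log10 p-value and −log10 q-value, and a score, which was not used. From the fold and the −log10 p the summit pileup was recovered, and it was whole, to within 0.01 in −log10 p, in 100% of peaks. The floor, the commonest background of a list, scaled the pileups. Read totals are unknown, and low summits carry wide counting error.

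Merging at 1 bp overlap covered chromosomes 1 to 18 and X, and other peaks were not used here. Regions were placed by summit against RefSeq's Sscrofa11.1 gene table, which has no strand, so both gene ends replaced the planned start sites. Links within 50 kb and distances to named genes were measured from the edge of the region. The share intervals are 95% exact Clopper-Pearson and cover counting error only.

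Times were compared with limma 3.58.1 (R 4.3.3), on log2 of summit height with a trend in variance. Other steps used Python 3.11.15. Members, gene lists and rules were chosen with earlier results of these data known. Named regions were the 10 strongest, the 8 strongest within 1 kb of a gene end, genes with at least 2 regions, the 4 longest chains, list genes, the 4 smallest p in each time direction and the 3 just inside the rule. The scripts were tested on simulated data. The search for 11 motifs was not run, since no genome sequence was used here. The alternatives are in the closing section. The fit of the WT class over time and the median distances under each definition were added after the data were seen.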

Additional observations from a re-analysis of the deposited data

How the results depend on the processing

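The class had 231 regions with −log10 q of at least 5, 432 with equal peak numbers, and 403 to 770 with 1 library left out. Its median distance to a gene end was 78.8 kb, 43.7 kb and 49.4 to 57.5 kb in the same order. By summit, 7.28% lay within 5 kb of a gene end. By the edge of the region, as for links, 14.01% had a gene end within 10 kb. Another region of the class lay within 10 kb of 1.12%. For the time difference in CBP, setting equal the medians of regions called in all 8 libraries gave 160 members higher and 1 lower (all regions 17758 and 6822). Of all calls 72.2% were then higher, against 13.3% as reported. Quantile normalization gave 70 members higher and 1 lower (all regions 5946 and 6735, 46.9% of calls higher). The authors' fold gave 31 members higher (7692 of all regions lower), and reversed ITPRIP to 0.052. A pseudocount of 5 reads gave 3 members lower. Without the 15271 regions of lowest height, 27 members were left, of which 2 were higher and 2 lower, with a median of −0.049 (all regions: 1369 higher), so the positive median rests on the faint members. Leaving out 1 library gave 14 to 49 members higher and 0 to 9 lower, with medians of 0.10 to 0.26, and 868 to 2967 of all regions higher and 4435 to 18069 lower. For the 14 regions named for time, 90 of 127 values under these settings kept direction and call, 36 kept the direction only and 1 reversed. The causes were not tested.

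With the replicate number as a block, 63 members were higher and 6 lower, and 4047 and 17959 of all regions. No pairing by number was visible: the deviations of same-numbered libraries from their group means correlated at 0.018 over regions. The labels name no shared animal or day, and 2 libraries per group cannot settle whether the samples were paired. With 7 to 11 reads at the faintest summits that were called at the floor, the lists cannot tell an absent site from one just under the threshold.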

Other observations

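For long non-coding RNA genes no difference from regions at large was shown. Of the 357, 3 (0.84%, exact interval 0.174 to 2.44) lay within 1 kb of an end of such a gene. The share was 0.744% (0.154 to 2.16) for the WT class and 1.82% for all regions, which is inside both intervals. More than 500 kb from any protein-coding gene end lay 15 (4.2%, 2.37 to 6.84), against 3.23% (1.73 to 5.45) of the WT class and 2.17% of all regions. The intervals of the CBP and WT classes overlapped in both cases. For the distance of over 500 kb, the share of all regions lay just below the CBP interval and inside the WT interval. Of the 249 windows of 10 Mb, 66 held no region of the CBP class. Windows with 5 or more numbered 5 for the CBP class and 11 for the WT class, which is also the larger class.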
